A study of Homo sapiens with 6 samples.

Results

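Aminoacyl-tRNA synthetases are the enzymes that load each amino acid onto its transfer RNA (tRNA) before translation. Their genes were selected from the deposited table by symbol (1 letter for the amino acid followed by ARS, with EPRS, FARSA, FARSB and TARSL2), together with the scaffold proteins AIMP1, AIMP2 and EEF1E1. The account covers 39 of the 54308 genes listed, of which 20 encode cytosolic synthetases, 16 encode mitochondrial synthetases, whose symbols end in 2, and 3 encode scaffold proteins. All 39 had a value in each of the 6 libraries, so none was lost to the filter on empty cells. Older symbols are used in the table for 18 of them (AARS for AARS1, TARSL2 for TARS3), and these are kept here.

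The libraries were made from 143B, a human osteosarcoma cell line, with 3 biological replicates of vector control (VC) cells and 3 of cells carrying a CRISPR/Cas9 deletion of CNTNAP4 (KO). The labels describe a transfection of 48 h with the vector plasmid in VC and with the KO plasmid in KO. The study's methods give a longer incubation with the plasmid, and the sources do not settle this difference. They also describe clonal cells expanded from single sorted RFP-positive cells in both arms. The methods give 2 expanded KO colonies and do not assign libraries to them, so a difference between VC and KO cannot be told apart from a difference between clones. The p-values measure the spread between these RNA samples. CNTNAP4 had a log2 signal of -7.18 in VC replicate 3 and an empty cell in the other 5 libraries, so its loss could not be read from this table. Of 8 bone and mesenchymal markers checked, VIM (10.33 to 10.93), SPARC (6.46 to 6.95), SPP1 (2.37 to 4.37), COL1A1 (2.28 to 2.73), RUNX2 (1.30 to 1.69), ALPL (-1.34 to -0.49) and COL1A2 (-5.72 to -4.59) had log2 signals in all libraries, and BGLAP had values in KO replicates 1 and 2 alone. Of the 7 tested, 4 were called higher in KO (SPP1, ALPL, SPARC and COL1A1, with log2 fold changes of 1.55, 0.58, 0.37 and 0.33) and COL1A2 was called lower (-0.81). The blood cell marker PTPRC had -7.12 to -4.35 and the endothelial marker PECAM1 -6.00 to -4.64. CDH5, the other endothelial marker, had -7.90 to -7.82 in VC replicates 1 and 3 and KO replicates 1 and 2, with empty cells elsewhere. Of the epithelial markers, CDH1 had a value in VC replicate 2 alone. EPCAM, also an epithelial marker, was lower in KO, at 1.79, 1.71 and 1.62 in VC and 1.11, 0.84 and 1.16 in KO (limma adjusted p = 0.0157). KRT19, the other epithelial marker checked, went the other way with overlapping groups. It had log2 signals of -6.33 to -2.39 and a log2 fold change of 1.01 (limma adjusted p = 0.471). The part of these markers in the results below was not tested.

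Cytosolic synthetases charge tRNAs for the ribosomes of the cytoplasm, and several of them (among them EPRS, IARS, LARS, MARS, QARS, RARS and KARS) are held with the 3 scaffold proteins in the multisynthetase complex. Mitochondrial synthetases are encoded in the nucleus and charge the tRNAs made inside mitochondria. GARS and KARS each give rise to a cytosolic and a mitochondrial enzyme from a single gene. Uncharged tRNA is sensed by the kinase GCN2 (EIF2AK4), whose signaling raises translation of the transcription factor ATF4, and many cytosolic synthetase genes are known targets of ATF4.

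Signals are the log2 values of the deposited table, whose distribution was nearly the same in all libraries, and every log2 fold change or log2 difference below is KO minus VC on that scale. A gene is called when limma's moderated test gave an adjusted p under 0.05 (Benjamini-Hochberg, over 19306 genes tested). Among all genes tested, 13.1% were called higher and 19.8% lower in KO, 32.9% in either direction, with a median log2 fold change of -0.13. With libraries centred on their medians, 3005 genes were called higher and 3233 lower, against 2526 and 3828 without centring. Of the 39 genes, 12 were higher and 5 were lower in KO, and 22 were not called. All KO values lay above all VC values in 16 of the 39 and below them in 12, and the groups overlapped in 11; over all genes with 6 values, 59.3% had groups that did not overlap. The 12 higher genes were 10 of the 20 cytosolic and 2 of the 16 mitochondrial synthetases. The 5 lower genes were 1 cytosolic synthetase, 3 mitochondrial synthetases and 1 scaffold gene. The median log2 fold change was 0.34 over the cytosolic genes and -0.078 over the mitochondrial genes, the latter turning to 0.0062 with libraries centred on their medians.

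**Figure D1:**
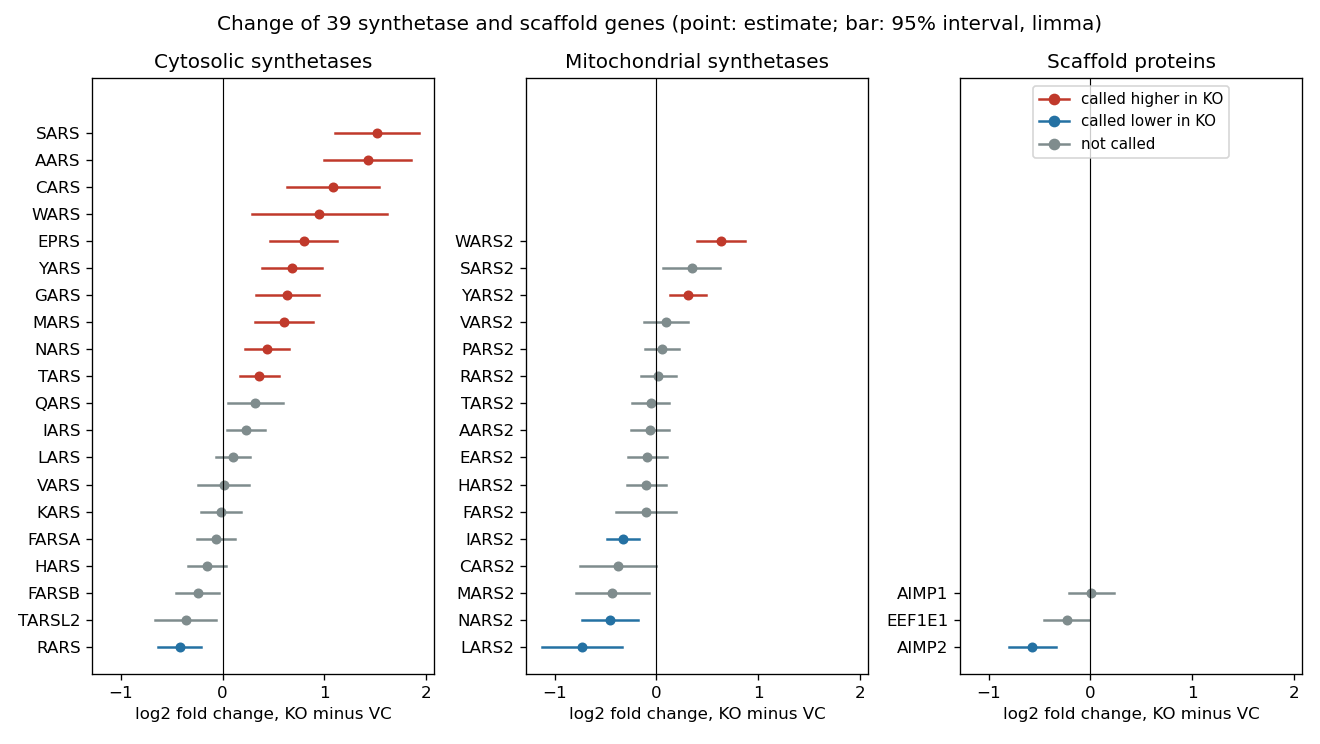
Log2 fold change (KO minus VC, horizontal axis) of each of the 39 genes, in panels for cytosolic synthetases, mitochondrial synthetases and scaffold proteins; points are limma estimates and bars 95% intervals, red for genes called higher, blue for genes called lower and grey for genes not called. The cytosolic panel reaches from -0.42 (RARS) to 1.51 (SARS), and the mitochondrial panel from -0.73 (LARS2) to 0.64 (WARS2).

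The cytosolic enzymes SARS, AARS and CARS, which charge serine, alanine and cysteine tRNAs, were more than 2-fold higher in KO. Such a rise was called for 4.10% of all genes. SARS had log2 signals of 5.30, 5.30 and 5.27 in the VC libraries, in order of replicate number, and of 6.54, 7.13 and 6.73 in the KO libraries. AARS was measured at 5.89, 5.86 and 5.88 in VC and at 6.97, 7.60 and 7.31 in KO. CARS gave 4.42, 4.38 and 4.37 in VC and 5.19, 5.85 and 5.39 in KO. For each of the 3 genes the VC libraries lay close together, every KO library was above them, and KO replicate 2 was the highest. SARS rose by 1.51 on the log2 scale (standard error 0.16, 2.85-fold, limma adjusted p = 0.00874). AARS rose by 1.42 (standard error 0.17, 2.68-fold, adjusted p = 0.00963) and CARS by 1.08 (standard error 0.18, 2.12-fold, adjusted p = 0.015).

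WARS, the tryptophan enzyme, which is also known to be induced by interferon, had log2 signals of 5.81, 5.80 and 5.81 in VC and 6.17, 7.11 and 6.99 in KO. The VC values were nearly equal, whereas KO replicate 1 lay far below the other KO libraries. The log2 fold change was 0.95 with the widest error of the called genes (standard error 0.26, adjusted p = 0.0443). WARS lies on chromosome 14, where the 340 genes in the upper 50% of mean signal had a median log2 fold change of -0.35. Over all genes in that upper 50% the median was -0.087.

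EPRS, which joins the glutamate and proline enzymes in 1 protein of the multisynthetase complex, had log2 signals of 5.41, 5.51 and 5.44 in VC and 6.03, 6.48 and 6.23 in KO. MARS, the methionine enzyme of the same complex, had 5.83, 5.81 and 5.86 in VC and 6.29, 6.66 and 6.38 in KO. In both genes all KO libraries were above all VC libraries, with replicate 2 the highest and replicate 1 the lowest of the KO arm. The log2 fold change was 0.79 for EPRS (standard error 0.13, adjusted p = 0.0148) and 0.61 for MARS (standard error 0.11, adjusted p = 0.0188).

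The remaining cytosolic genes called higher were those of tyrosine, glycine, asparagine and threonine. YARS had log2 signals of 5.72, 5.66 and 5.66 in VC and 6.22, 6.59 and 6.28 in KO. GARS went from 6.44, 6.42 and 6.45 in VC to 6.92, 7.32 and 6.99 in KO. Neither gene showed an overlap between the groups, and the log2 fold changes were 0.68 (adjusted p = 0.0156) and 0.64 (adjusted p = 0.0198), respectively. NARS was at 6.30, 6.39 and 6.31 in VC and at 6.66, 6.90 and 6.75 in KO. TARS was at 7.09, 7.13 and 7.09 in VC and at 7.39, 7.56 and 7.44 in KO. These were the smallest of the called cytosolic rises, 0.44 for NARS (adjusted p = 0.0218) and 0.36 for TARS (adjusted p = 0.0236), again with KO libraries above VC libraries throughout.

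RARS, the arginine enzyme of the multisynthetase complex, was the cytosolic gene called lower. Its log2 signals were 6.54, 6.67 and 6.59 in VC and 6.27, 6.08 and 6.19 in KO. Every KO library was under every VC library, and RARS fell by 0.42 on the log2 scale (standard error 0.08, adjusted p = 0.022).

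The other 9 cytosolic genes were not called. QARS (0.32, 95% interval 0.06 to 0.59, adjusted p = 0.0664), IARS (0.23, 0.04 to 0.41, adjusted p = 0.0624) and LARS (0.10, -0.06 to 0.27, adjusted p = 0.276) had log2 fold changes above 0 with KO libraries above VC libraries. VARS (0.01, -0.24 to 0.26), KARS (-0.02, -0.21 to 0.18) and FARSA (-0.06, -0.25 to 0.12) had intervals on both sides of 0, with groups that overlapped. FARSB, which encodes the partner subunit of FARSA in the phenylalanine enzyme, had a log2 difference of -0.24 (-0.45 to -0.03, adjusted p = 0.0732), HARS one of -0.16 (-0.34 to 0.03, adjusted p = 0.16) and TARSL2, a further threonine enzyme, one of -0.36 (-0.66 to -0.06, adjusted p = 0.0656). In these 3 genes the KO libraries were under the VC libraries. Altogether, 13 of the 20 cytosolic genes had all KO values above all VC values, against 22.6% of all genes with 6 values, and 4 had them below, against 36.7%.

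Within the cytosolic set, 2 of 7 enzymes of the multisynthetase complex (EPRS and MARS) were called higher and 1 (RARS) lower, with a median log2 fold change of 0.23. Of the 13 cytosolic genes outside the complex, 8 were called higher and 0 lower by limma, with a median of 0.44. An unadjusted limma p under 0.05 was reached by 10 of these 13 and by 5 of the 7 in the complex. The share over all genes tested was 47.9%. Every KO library was above every VC library in 8 of the 13 and in 5 of the 7. Every KO library was under every VC library in 3 of the 13 and in 1 of the 7. By catalytic class, 4 of 9 cytosolic class I genes were called higher (CARS, WARS, MARS and YARS) and 1 lower, with a median of 0.32. Of 10 class II genes 5 were called higher (SARS, AARS, GARS, NARS and TARS) and 0 lower, with a median of 0.17. All KO values lay above all VC values in 7 of the 9 class I and 5 of the 10 class II genes. Among all genes tested, 13.1% were called higher and 19.8% lower. EPRS holds an enzyme of each class and was left out of these counts. The difference between the complex and the other enzymes, or between the classes, was not tested.

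The sequence before the start of each gene was searched for the C/EBP-ATF response element, the site that ATF4 is known to bind as a dimer with a C/EBP protein, written TGATGNAA (N is any base) and read on both strands. RefSeq windows of 250 bases before and 50 bases after an annotated start (GRCh38.p14) were matched by symbol for 33 of the 39 genes, some with several starts. No window was matched for YARS, LARS, VARS, TARSL2, AARS2 and VARS2. The matches in synthetase genes are shown so that the letters shared between genes can be compared with those around them. Each is written 5′ to 3′ on the strand of its gene, with the 8 letters of the match in capitals:
AARS (chr16:70289676-70289703, minus strand): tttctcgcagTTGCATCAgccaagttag
CARS (chr11:3057408-3057435, minus strand): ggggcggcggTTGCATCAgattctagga
MARS (chr12:57488054-57488081, plus strand): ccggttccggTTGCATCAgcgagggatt
TARS (chr5:33440957-33440984, plus strand): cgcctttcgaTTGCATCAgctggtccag
IARS (chr9:92293693-92293720, minus strand): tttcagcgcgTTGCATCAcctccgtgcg
NARS (chr18:57621805-57621832, minus strand): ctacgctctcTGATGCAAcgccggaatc
GARS (chr7:30594835-30594862, plus strand): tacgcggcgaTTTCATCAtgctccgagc
YARS2 (chr12:32756077-32756104, minus strand): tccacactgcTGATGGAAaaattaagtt

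The same 8 letters, TTGCATCA, stood in AARS, CARS, MARS, TARS and IARS, and NARS held their reverse complement, TGATGCAA. In CARS and MARS the match ran across the annotated start, from position -2 to 6 and from -4 to 4, where 1 is the first transcribed base and -1 the base before it. It lay at -13 to -6 in IARS and -33 to -26 in GARS, and at 3 to 10 in TARS and 15 to 22 in NARS. In AARS and YARS2 it was farther from the start, at -187 to -180 and -197 to -190. Of the windows of cytosolic genes 7 of 21 held TGATGNAA, of those of mitochondrial genes 1 of 18, of those of scaffold genes 0 of 6, and of all 35116 RefSeq windows 3.62%. The form TTGCATCA, on either strand, was in 6 of the 21 cytosolic windows and in 0.866% of all windows. It is the form shared by most of the cytosolic matches shown above, so this count is a description and not a test.

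By gene, 7 of 16 cytosolic genes with a window held a match. All 7 had KO libraries above VC libraries and 6 of them were called higher (AARS, CARS, GARS, MARS, NARS and TARS), with a median log2 fold change of 0.61. IARS, the seventh, was not called. Of the 9 cytosolic genes without a match 3 were called higher (SARS, WARS and EPRS) and 1 lower (RARS), with a median of -0.019, which is the value of KARS and turned to 0.065 for that gene with libraries centred on their medians. SARS, the gene with the largest rise, was thus among those without these letters in the window. YARS, called higher, had no window and entered neither count. A match describes the letters only, and binding was not measured here. The difference between genes with and without a match was not tested.

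**Figure D2:**
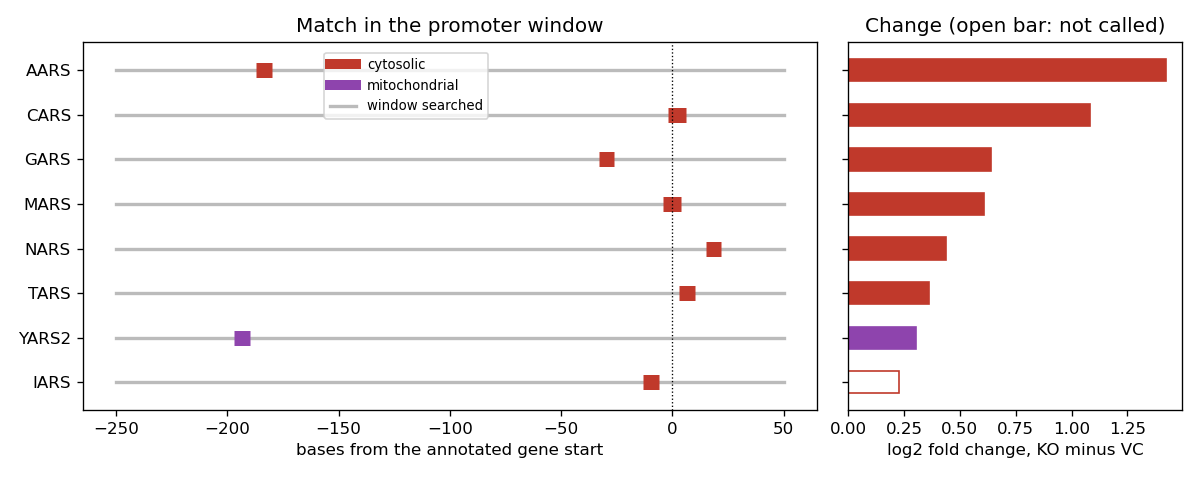
Position of the TGATGNAA match (blocks, either strand) in the 300-base window of each of the 8 genes that held one, in bases from the annotated start (left, dotted line at the start), beside the log2 fold change of the gene (right, KO minus VC, open bar for the gene not called). Cytosolic genes are red and the mitochondrial gene YARS2 is purple; 6 of the 8 matches lie between 33 bases before and 22 bases after the start.

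Among mitochondrial synthetases WARS2 and YARS2 were called higher, and LARS2, NARS2 and IARS2 were called lower. WARS2, the mitochondrial tryptophan enzyme, had log2 signals of 5.50, 5.55 and 5.52 in VC and 6.04, 6.32 and 6.13 in KO. YARS2, the tyrosine enzyme, had 3.04, 2.99 and 2.97 in VC and 3.25, 3.38 and 3.28 in KO. Both had all KO libraries above all VC libraries. WARS2 rose by 0.64 (standard error 0.09, 1.55-fold, adjusted p = 0.0125) and YARS2 by 0.31 (standard error 0.07, 1.24-fold, adjusted p = 0.0291). The table also lists WARS2-AS1, an antisense gene of the WARS2 locus, at 3.51 to 3.65 over the 6 libraries (adjusted p = 0.938). The labels name a stranded library kit, but whether the counting used strand is not given in the sources used here.

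LARS2, which charges mitochondrial leucine tRNA, had the largest decrease of the 39 genes. It was at 4.13, 4.13 and 4.09 in VC and at 3.67, 3.09 and 3.39 in KO. The groups did not overlap, and KO replicate 2 was the lowest library. LARS2 fell by 0.73 on the log2 scale (standard error 0.16, adjusted p = 0.0253), which leaves 0.602 of the VC signal.

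NARS2, the asparagine enzyme, had log2 signals of 2.71, 2.78 and 2.62 in VC and 2.43, 2.19 and 2.12 in KO, a log2 difference of -0.46 (standard error 0.11, adjusted p = 0.0312). IARS2, the isoleucine enzyme, had 5.25, 5.26 and 5.21 in VC and 4.93, 4.93 and 4.88 in KO, a log2 difference of -0.33 (standard error 0.06, adjusted p = 0.0198). For IARS2 the 3 KO libraries were as close to each other as the 3 VC libraries (SD 0.029 in each group).

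The other 11 mitochondrial genes were not called. SARS2 had a log2 difference of 0.35 (95% interval 0.07 to 0.63, adjusted p = 0.0631), with KO libraries above VC libraries, and was called higher with libraries centred on their medians (0.43, adjusted p = 0.0422). MARS2 (-0.43, -0.79 to -0.07, adjusted p = 0.0692) and CARS2 (-0.38, -0.75 to -0.01, adjusted p = 0.101) had KO libraries under VC libraries, and so had HARS2 (-0.10, -0.29 to 0.09, adjusted p = 0.346). For VARS2, PARS2, RARS2, TARS2, AARS2, EARS2 and FARS2 the groups overlapped and the log2 fold changes lay between -0.10 (FARS2) and 0.09 (VARS2). In all, 3 of the 16 mitochondrial genes had all KO values above all VC values (22.6% of all genes with 6 values) and 6 had them below (36.7%). HARS and HARS2 lie next to each other on chromosome 5, with 84 bases between them in RefSeq, and both had KO libraries under VC libraries without being called.

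The cytosolic and mitochondrial enzymes of the same amino acid were set side by side in 17 pairs, in which EPRS and FARS2 each stand in 2 pairs because EPRS serves glutamate and proline and FARSA and FARSB are subunits of the same enzyme. The log2 fold change was larger for the cytosolic gene in 13 of 17 pairs, and in 8 it was above 0 for the cytosolic and below 0 for the mitochondrial gene, although AARS2 and TARS2 turned to 0.020 and 0.026 with libraries centred on their medians. Both members were called higher for tryptophan (0.95 for WARS and 0.64 for WARS2) and tyrosine (0.68 for YARS and 0.31 for YARS2). For asparagine the cytosolic gene was called higher and the mitochondrial gene lower (0.44 for NARS and -0.46 for NARS2). For alanine the cytosolic gene was among the most raised, at 1.42, whereas AARS2 had a log2 difference of -0.06 (95% interval -0.25 to 0.12). In 10 pairs 1 member was called, and in 4 neither was. The differences within pairs were not tested.

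**Figure D3:**
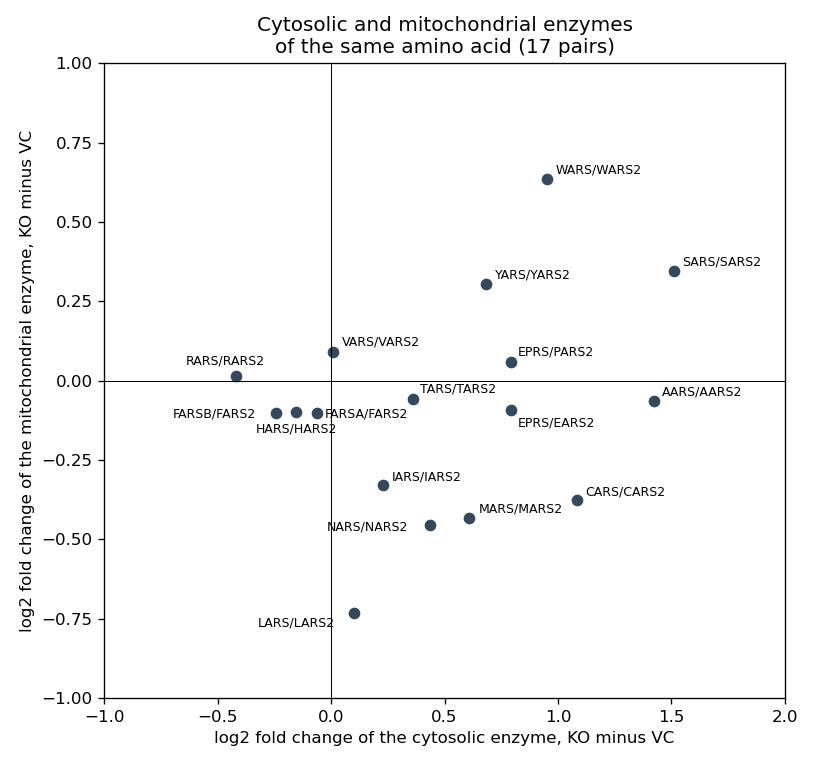
Log2 fold change (KO minus VC) of the cytosolic enzyme (horizontal axis) against that of the mitochondrial enzyme of the same amino acid (vertical axis), 1 point per pair. The 8 pairs in the lower right part have a cytosolic value above 0 and a mitochondrial value below 0; WARS/WARS2, YARS/YARS2, SARS/SARS2, EPRS/PARS2 and VARS/VARS2 have both values above 0.

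Of the scaffold genes, AIMP2 was called lower. It had log2 signals of 4.96, 5.00 and 4.97 in VC and 4.56, 4.29 and 4.36 in KO, with no overlap, and fell by 0.57 on the log2 scale (standard error 0.09, adjusted p = 0.0143). EEF1E1, also known as AIMP3, had 4.78, 4.84 and 4.67 in VC and 4.60, 4.42 and 4.57 in KO. Its groups did not overlap either, and the log2 fold change was -0.23 (95% interval -0.46 to -0.01, adjusted p = 0.0944). EEF1E1 shares exons with the readthrough gene EEF1E1-BLOC1S5, which had its own row (0.55 to 1.86), so reads of the shared part could be assigned to either. AIMP1 was at 3.50, 3.69 and 3.45 in VC and at 3.56, 3.53 and 3.58 in KO, a log2 difference of 0.01 (-0.21 to 0.23).

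The KO libraries differed among themselves in the same order for most of these genes. In all 10 cytosolic genes called higher, KO replicate 2 was farthest from the VC mean, KO replicate 3 came next and KO replicate 1 was nearest. Their median distance from the VC mean was 0.51, 0.97 and 0.69 on the log2 scale in KO replicates 1, 2 and 3. The same order held in 15 of the 17 called genes, the exceptions being NARS2 and IARS2, where KO replicate 3 was farthest. Over all called genes with 6 values and higher in KO this order held in 57.9%, and over those lower in KO in 64.4%. The spread was larger in KO than in VC for 31 of the 39 genes, with a median SD of 0.11 against 0.044, and for 70.2% of all genes with 6 values.

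**Figure D4:**
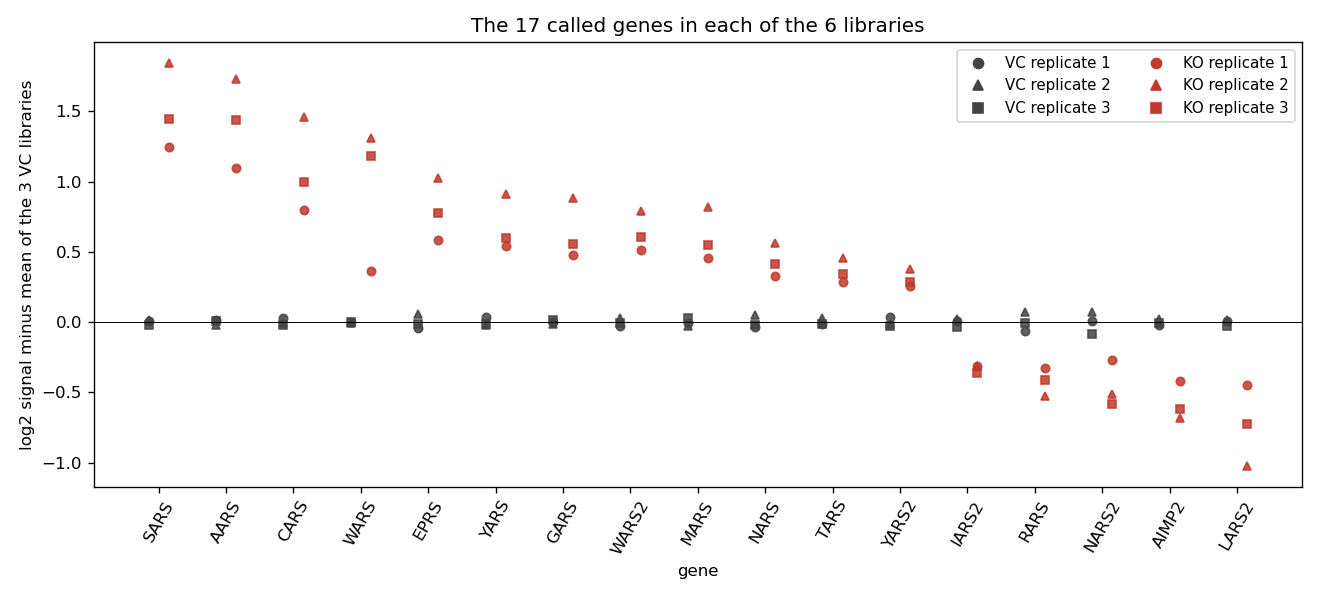
Log2 signal minus the mean of the 3 VC libraries (vertical axis) for the 17 called genes, ordered from the largest rise to the largest decrease, with VC libraries in dark grey and KO libraries in red and a symbol for each replicate number. VC libraries sit near 0; KO replicate 2 (triangle) is the highest in all 12 genes called higher, reaching 7.13 against a VC mean of 5.29 in SARS.

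Each library was left out in turn, in 6 fits. The groups of all 17 called genes did not overlap, so their sign could not change in these fits. SARS and AARS remained called in all 6 (highest adjusted p 0.0422 and 0.0441), and they were the only members called without VC replicate 1 and without VC replicate 3. Without VC replicate 2 the members called were SARS, AARS, EPRS, WARS2 and AIMP2, and without KO replicate 3 they were SARS, AARS, CARS, YARS and WARS2. Without KO replicate 2, 14 of the 17 were called, WARS, NARS2 and YARS2 being lost. Without KO replicate 1 all 17 and 8 others were called (QARS, IARS, SARS2, HARS, FARSB, TARSL2, MARS2 and CARS2). WARS and YARS2 had the highest adjusted p among the 17 in these fits, 0.119 and 0.103. Numbers of calls over all genes moved likewise, from 6354 to between 1223 and 8669.

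Among partners of the cytosolic synthetases, 1 of 14 genes was called higher and 3 were called lower, against 13.1% and 19.8% of all genes tested. Their median log2 fold change was 0.06. SEPSECS, which makes selenocysteine on a tRNA first charged with serine, rose by 0.38 (adjusted p = 0.0488), from 1.48, 1.48 and 1.49 in VC to 1.79, 2.07 and 1.72 in KO. PSTK, the kinase of the preceding step, had a log2 difference of -0.36 (adjusted p = 0.0293). EIF2AK4, which encodes GCN2, had log2 signals of 4.82, 4.82 and 4.82 in VC and 4.43, 4.17 and 4.33 in KO and fell by 0.51 (adjusted p = 0.0161). EEF1D, a subunit of the elongation factor complex that binds VARS, fell by 0.37 (adjusted p = 0.0269). The elongation factor EEF1A1, which carries charged tRNA to the ribosome, had a log2 difference of 0.24 (adjusted p = 0.0788) and XPOT, which exports tRNA from the nucleus, one of 0.25 (adjusted p = 0.0904), each with KO libraries above VC libraries. The other 8 (EEF1B2, EEF1G, TRNT1, AARSD1, DTD1, DTD2, SEPHS2 and GCN1) were not called. With libraries centred on their medians, EEF1A1 (0.32, adjusted p = 0.0453), EEF1B2 (0.30, adjusted p = 0.045) and AARSD1 (0.28, adjusted p = 0.0378) were also called higher and PSTK (-0.27, adjusted p = 0.064) was not called.

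Of 7 mitochondrial partners, 0 were called higher and 2 lower by limma, against 13.1% and 19.8% of all genes tested. All 7 had log2 fold changes below 0, as had 11540 of the 19306 genes tested. The median of the 7 was -0.15, against -0.13 over all genes tested, and GATB turned to 0.019 with libraries centred on their medians. An unadjusted p under 0.05 was reached by 3 of the 7, against 47.9% of all genes. QRSL1, a subunit of the enzyme that converts glutamate to glutamine on mitochondrial tRNA, went from 3.45, 3.38 and 3.35 in VC to 3.14, 2.75 and 2.92 in KO and fell by 0.45 (adjusted p = 0.0375). GFM1, a mitochondrial elongation factor, fell by 0.41 (adjusted p = 0.0198). GATC (-0.29, adjusted p = 0.0596) and GATB (-0.07, adjusted p = 0.48), which encode the other subunits of the QRSL1 enzyme, were not called, nor were TUFM, TSFM and MTFMT.

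All 16 genes of an amino acid response list (ATF4 and genes known to rise when amino acids are short or ATF4 is active) were called higher in KO, with log2 fold changes from 0.87 (PHGDH) to 4.34 (DDIT3) and a median of 1.71. Over all genes tested, 13.1% were called higher and the median was -0.13. The list was chosen with the rise of this pathway in these libraries already known, so its count is a description. Of 14 of these genes with a promoter window, 4 held TGATGNAA, against 4.46% of all genes with a window. The form TTGCATCA, on either strand, was in 1 of their 23 windows. ATF4 itself had log2 signals of 5.37, 5.35 and 5.35 in VC and 6.46, 6.95 and 6.67 in KO (log2 fold change 1.34, adjusted p = 0.00815). ASNS, the asparagine synthetase that makes the amino acid rather than charging it, had 3.35, 3.45 and 3.47 in VC and 5.89, 6.93 and 6.54 in KO (3.03, adjusted p = 0.00722). DDIT3, a transcription factor induced by ATF4, had 1.47, 1.57 and 1.36 in VC and 5.58, 6.34 and 5.52 in KO, and PHGDH, an enzyme of serine synthesis, had 7.38, 7.29 and 7.35 in VC and 7.97, 8.45 and 8.20 in KO. KO replicate 2 was the highest KO library for all 16, and for 79.1% of all called genes with 6 values and higher in KO. The full order seen for the cytosolic synthetases held in 9 of the 16, ATF4, ASNS and PHGDH among them, against 57.9% of those called genes. In the other 7, such as DDIT3, KO replicate 3 was nearest to VC. Since RNA was taken from bulk cultures, more RNA per cell and more cells with the RNA cannot be told apart for any of these genes.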

How the data were processed

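Total RNA of 3 VC and 3 CNTNAP4 KO samples of 143B cells was sequenced. The authors deposited log2 signals per gene, with an empty cell where a library had no value; after sorting, all 6 libraries hold almost the same values, from which quantile normalization was inferred. The submitters' processing notes name CASAVA, STAR, Partek and GRCh38.p13, and the methods name CLC Genomics software. The linear unit, annotation and versions are not given in the sources used here, so read depth is unknown, no counting interval could be computed, and members were not compared with each other by level.

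Libraries were mapped to groups by their titles and column names. Signals were used as deposited. The 19306 genes that held 2 or more values per group were fitted with limma 3.58.1 in R 4.3.3 (empirical Bayes, no trend), with two-sided p-values adjusted by the Benjamini-Hochberg method over all of them. The script was tested on simulated data. With 3 libraries against 3, an exact permutation test cannot give a two-sided p under 0.1 and none was run.

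The gene selection and lists were chosen with earlier results of these data known. The symbol rule matched 41 genes, of which 2 are not reported here and enter no count or figure of the group; all genes entered the fit. Every member is named with its value or within a range; values by library are given for called members and for the extremes of the cytosolic, mitochondrial and scaffold lists. Of partner lists, called genes and counts are given. Chromosomes and neighbours were taken from RefSeq by symbol. Alternatives covered genes tested, a signal filter, a pseudocount, scaling, variance moderation, a replicate block, left-out libraries and unadjusted p-values.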

Additional observations from a re-analysis of the deposited data

How the results depend on the processing

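The replicate numbers of VC and KO gave no sign of a pairing (correlations of deviations of 0.023, 0.0051 and -0.0074; 1 of the 3 VC libraries correlated best with the KO library of its own number). With a replicate block, 3 cytosolic genes were called, 3 higher (SARS, AARS and EPRS) and 0 lower, with 1 mitochondrial gene, 1 higher (WARS2) and 0 lower, and 0 scaffold genes, 0 of them lower; over all genes 1740 were called, 661 higher and 1079 lower.

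Restricted to the upper 50% of genes by mean signal, 12 cytosolic genes were called higher and 2 lower. In that setting 8 mitochondrial genes were called, 5 of them lower, and 2 scaffold genes, 2 lower, while FARS2 and TARSL2 could not be tested. Trend and robust moderation gave 12 cytosolic genes higher and 2 lower, and 2 scaffold genes, 2 lower. Adding 1 to the linear signal gave 12 cytosolic genes higher and 3 lower, and 2 scaffold genes, 2 lower, and moved the median of all genes from -0.13 to -0.023. Without variance moderation 3 mitochondrial genes were called, 1 of them lower, and 2442 of all genes were called lower. Among cytosolic genes WARS was then no longer called (adjusted p of the unmoderated test 0.0846) and IARS was called higher (0.0464). At an unadjusted p, 3 cytosolic genes and 5796 of all genes were lower, 8 mitochondrial genes were called, 5 of them lower, and 2 scaffold genes, 2 lower. Centring each library on its median gave medians of 0.43 for cytosolic and 0.0062 for mitochondrial genes, and reversed TARS2 to 0.026, AARS2 to 0.020, KARS to 0.065 and FARSA to 0.020, none of them called. Genes with 6 values alone, and a further quantile normalization, changed no call of the 39 genes. For the promoter search, 3 of 16 cytosolic genes held a match before the start alone (18.8%, against 43.8% in the whole window).

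With single libraries left out, the number of cytosolic genes called was 2 to 16 (2 to 12 higher and 0 to 4 lower), of mitochondrial genes 0 to 8 (0 to 3 higher and 0 to 5 lower), of scaffold genes 0 to 1 (0 to 1 lower), and of all genes 1223 to 8669 (654 to 2940 higher and 569 to 5729 lower). For all genes the fewest calls came without VC replicate 3, for both kinds of synthetase without VC replicate 1 and without VC replicate 3, and the most without KO replicate 1. The median was 0.28 to 0.40 for cytosolic and -0.10 to -0.050 for mitochondrial genes. Genes not called whose sign reversed in these fits were AIMP1 (-0.037 to 0.081), RARS2 (-0.014 to 0.040), VARS (-0.067 to 0.052), KARS (-0.054 to 0.036) and FARS2 (-0.19 to 0.0029). Read depth, which sets counting error, is unknown here, and the causes of these changes were not tested.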
